A study of Mus musculus with 12 samples.

Results

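DNA replication genes were followed in embryonic mouse lungs in which either Yy1 or Dicer was floxed under an epithelial Cre. The list held 47 genes in 12 roles, which cover origin recognition, licensing, the replicative helicase, the sliding clamp and its loader, the polymerases, fragment joining, single-strand binding, nucleotide supply, chromatin assembly and the E2F activators. For each gene the probe set annotated with that symbol alone was taken, and the one with the highest mean over all arrays where there were several. This gave 46 of the 47 genes out of 22180 genes in all. Rfc4, a clamp loader subunit, was not analysed because its listed probe set is annotated to Eif4a2 as well.

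Whole lungs at E14.5 were profiled on 12 Affymetrix arrays, 4 specimens per genotype. The Yy1 mutants were Yy1flox/flox;Shh+/Cre, the Dicer mutants were Dicerflox/flox;Shh+/Cre, and the controls were Shh+/Cre. All 3 groups therefore carried the Cre allele, and no group without it was measured. Cre sits at the Shh locus, which is active in the lung epithelium, so the RNA of each specimen also came from mesenchyme, vessels and blood cells in which the floxed gene was not targeted. The labels do not say whether a specimen was 1 embryo or a pool, nor whether specimens shared a litter, so the p-values measure only the spread between these arrays.

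A chromosome is copied once per cell cycle from many origins. The origin recognition complex, with Cdc6 and Cdt1, loads the Mcm2 to Mcm7 ring onto DNA in G1 phase, and geminin (Gmnn) blocks Cdt1 afterwards. In S phase Cdc45 and the GINS complex turn the ring into an active helicase, the primase and polymerases copy the strands on the clamp Pcna, and ribonucleotide reductase and thymidylate synthase supply the building blocks. Most of these genes are transcribed under E2F factors as cells enter S phase. In the branching lung, dividing progenitors lie in the epithelial tips and in the surrounding mesenchyme.

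Values are log2 signals as deposited, and differences are on the same log2 scale, with the standard error (SE) of the fit. The 12 arrays were fitted together with limma, and a change counted as called where its p, adjusted by Benjamini-Hochberg across the 22180 genes, was under 0.05. The arrays had medians of 5.99 to 6.08 over all probe sets and correlated at 0.978 to 0.991 in pairs. The lung epithelial regulator Nkx2-1 read 8.15 to 8.66 in Yy1 mutants, 8.62 to 9.06 in Dicer mutants and 9.17 to 9.46 in controls. Yy1 itself read 8.87, 8.70, 8.85 and 8.95 in Yy1 mutants, against 9.01, 9.14, 8.98 and 9.01 in controls, and its difference of -0.19 did not pass the test (adjusted p = 0.125). Dicer1 read 8.03, 8.27, 8.26 and 8.22 in Dicer mutants, against 9.02, 8.85, 8.73 and 8.63 in controls, a call at -0.61 (adjusted p = 0.00127). Eif2s3y, Kdm5d and Uty, which lie on the Y chromosome, were raised on 3 mutant arrays and on no control. Uty read 8.52 in Yy1 mutant 2, 5.14 in Yy1 mutant 3 and 8.28 in Dicer mutant 4, so the counts are also given without these arrays.

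Replication genes were lower in both mutants, by small amounts. In Yy1 mutant lungs 13 of the 46 genes fell and 0 rose, where 3.84% of all genes were called lower and 2.77% higher (6.61% in either direction). In Dicer mutant lungs 12 fell and 0 rose, where 3.97% of all genes were called lower and 4.78% higher (8.75% in either direction). At an unadjusted p under 0.05, 23 members were lower and 1 was higher in Yy1 mutants, where 10.2% of all genes were lower and 9.01% higher. At that level 26 members were lower and 0 higher in Dicer mutants, where 12.1% of all genes were lower and 10.2% higher. The median difference over the members was -0.17 in Yy1 mutants and -0.18 in Dicer mutants, against 0.002 and -0.03 over all genes. The fitted difference was below 0 for 42 of the 46 members in Yy1 mutants and for 43 in Dicer mutants. The changes that passed the test lay between 1.18-fold (Chaf1b) and 1.49-fold (E2f2) in Yy1 mutants and between 1.18-fold (Pole) and 1.35-fold (Mcm10) in Dicer mutants.

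The 8 genes called lower in both mutants were Cdc6, Mcm2, Mcm5, Mcm10, Gins2, Gins3, Rfc5 and Pole. They made up 61.5% of the calls in Yy1 mutants and 66.7% of those in Dicer mutants. The same 4 control arrays entered both comparisons, so the lists are not independent. In Yy1 mutants Pole2, Fen1, Rrm2, Chaf1b and E2f2 were called in addition, and in Dicer mutants Cdt1, Pola2, Lig1 and Chaf1a. Another 29 members were called in neither. In 20 members all 4 Yy1 mutant arrays lay below all 4 controls, where 7.05% of all genes did so, and in 22 members all 4 Dicer mutant arrays did, where 8.45% of all genes did so. In 0 members did all mutant arrays lie above all controls, where 5.57% of all genes did so in Yy1 mutants and 7.5% in Dicer mutants.

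**Figure D1:**
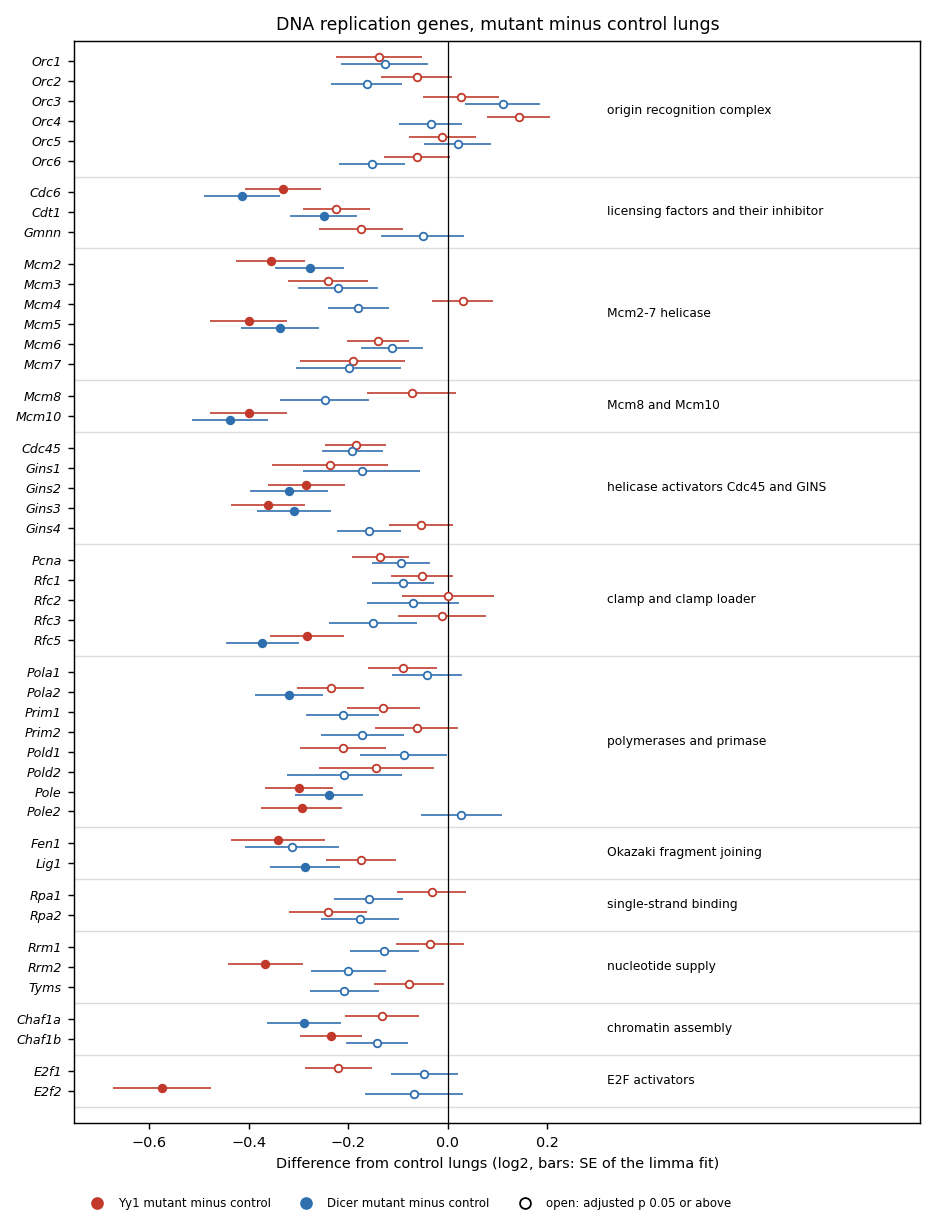
Difference of each of the 46 replication genes from control lungs on the log2 scale (horizontal axis), with Yy1 mutants in red and Dicer mutants in blue, genes in blocks by role and bars for the SE of the limma fit. Filled points passed the test, 13 in Yy1 mutants and 12 in Dicer mutants, all of them left of 0. The 6 origin recognition genes, all open points, lie between -0.16 and 0.14.

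With Yy1 mutants 2 and 3 and Dicer mutant 4 left out, because of their Y-linked signal, the limma fit called 0 members in Yy1 mutants and 3 lower in Dicer mutants. That fit called 606 of all 22180 genes in either direction in Yy1 mutants, 245 of them higher. In Dicer mutants it called 976, 578 of them higher. At an unadjusted p under 0.05 it gave 17 members lower and 0 higher in Yy1 mutants, where 8.19% of all genes were lower and 6.91% higher. In Dicer mutants it gave 20 lower and 0 higher, where 9.37% of all genes were lower and 8.72% higher. The medians in that fit were -0.145 and -0.168, from 2 Yy1 mutant and 3 Dicer mutant arrays against 4 controls. With an indicator for these arrays in the model, 5 members were called lower in Yy1 mutants and 8 in Dicer mutants. Of all genes, 919 were then called in Yy1 mutants, 382 of them higher, and 1537 in Dicer mutants, 865 of them higher. The count in Yy1 mutants was 7 without Yy1 mutant 1, 8 without Yy1 mutant 2, 7 without Yy1 mutant 3, 8 without Dicer mutant 4 and 7 without control 1. The count in Dicer mutants was 8 without Dicer mutant 2, 8 without Dicer mutant 3 and 5 without Dicer mutant 4. It was 5 without control 1 and 8 without control 3. Over the 12 fits with 1 array left out, 1020 to 1455 of all genes were called in Yy1 mutants, against 1465 in the main fit. In Dicer mutants it was 1275 to 1991, against 1940.

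Array by array, the median member lay 0.17, 0.23, 0.15 and 0.12 below the control mean in Yy1 mutants 1 to 4. In Dicer mutants 1 to 4 it lay 0.19, 0.16, 0.15 and 0.21 below. The control arrays themselves lay at 0.11, 0.02, -0.03 and -0.09. All 8 mutant arrays were therefore below the lowest control, and control 1 and control 4 were the controls farthest apart. Between 36 and 41 members were below the control mean on each Yy1 mutant array, and between 40 and 45 on each Dicer mutant array, against 9 to 41 on the control arrays.

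**Figure D2:**
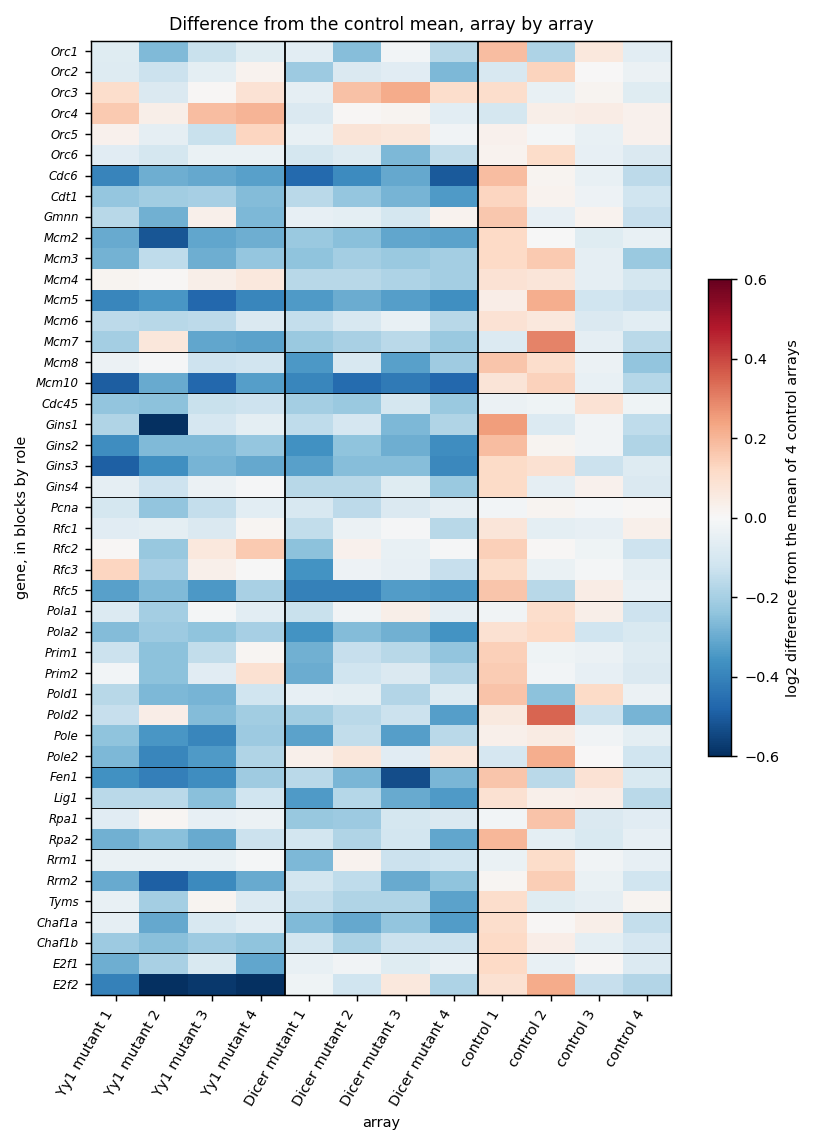
Difference of each replication gene from the mean of the 4 control arrays (colour, log2 scale) on each of the 12 arrays (columns), with genes in rows and blocks by role. Blue cells, below the control mean, fill most of the mutant columns, and control 1 is above the control mean in most rows. In the first block, of 6 origin recognition genes, 2 to 5 were below it on each Yy1 mutant array and 3 to 6 on each Dicer mutant array.

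The promoters of these genes were read from RefSeq (GRCm38.p6), 250 bases before to 50 bases after each annotated start, and 39 of the 47 genes had at least 1. An E2F site was searched as TTTGGCGC or TTTCGCGC on either strand, and a YY1 site as AANATGGCG on either strand. The E2F letters were found in 12 of 48 promoters of replication genes (25.0%), against 0.813% of 32851 promoters of all genes. The YY1 letters were found in 3 of the 48 (6.25%), against 2.38% of all. Both searches describe letters in a window and not bound sites. Of the members called lower in Yy1 mutants, 3 of 11 with a promoter held the E2F letters, against 9 of 27 that were not called, and in Dicer mutants it was 3 of 10 against 9 of 28. For the YY1 letters it was 2 of 11 against 1 of 27 in Yy1 mutants and 1 of 10 against 2 of 28 in Dicer mutants. Whether these shares differ was not tested. The 5 promoters below are shown because they hold the E2F letters and belong to genes the results turn on. A second annotated promoter of E2f2, with 0 matches, is not shown. Mcm5 was lower in both mutants, Cdt1 was called in Dicer mutants, E2f2 and Pole2 differed between the mutants, and Mcm6 was called in neither although its promoter held 3 matches. Each is written 5′ to 3′ on the gene's strand with the E2F letters in capitals, and overlapping matches run together.
Mcm5 (chr8:75109259-75109558, plus strand): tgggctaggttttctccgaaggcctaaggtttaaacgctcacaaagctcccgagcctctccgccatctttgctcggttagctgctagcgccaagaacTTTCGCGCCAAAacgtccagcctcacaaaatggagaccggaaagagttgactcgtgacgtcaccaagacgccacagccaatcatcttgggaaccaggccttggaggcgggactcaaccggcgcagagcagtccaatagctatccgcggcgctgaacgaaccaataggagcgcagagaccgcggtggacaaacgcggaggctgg
Cdt1 (chr8:122567765-122568064, plus strand): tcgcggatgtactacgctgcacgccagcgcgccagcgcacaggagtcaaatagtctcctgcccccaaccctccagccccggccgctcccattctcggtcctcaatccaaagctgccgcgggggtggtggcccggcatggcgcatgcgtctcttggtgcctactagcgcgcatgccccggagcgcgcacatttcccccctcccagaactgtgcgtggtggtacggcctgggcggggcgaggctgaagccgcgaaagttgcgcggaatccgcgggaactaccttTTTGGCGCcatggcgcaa
E2f2 (chr4:136172024-136172323, plus strand): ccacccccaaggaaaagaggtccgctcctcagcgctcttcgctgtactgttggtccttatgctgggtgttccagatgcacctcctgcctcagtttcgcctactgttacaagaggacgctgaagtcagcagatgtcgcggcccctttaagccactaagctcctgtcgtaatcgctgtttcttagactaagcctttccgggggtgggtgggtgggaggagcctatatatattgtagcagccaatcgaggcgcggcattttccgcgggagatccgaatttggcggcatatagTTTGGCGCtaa
Pole2 (chr12:69228141-69228440, minus strand): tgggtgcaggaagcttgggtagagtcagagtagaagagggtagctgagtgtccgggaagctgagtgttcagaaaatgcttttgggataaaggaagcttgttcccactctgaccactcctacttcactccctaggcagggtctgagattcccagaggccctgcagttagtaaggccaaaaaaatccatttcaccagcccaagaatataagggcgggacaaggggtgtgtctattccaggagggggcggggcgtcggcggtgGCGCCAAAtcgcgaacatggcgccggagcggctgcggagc
Mcm6 (chr1:128359656-128359955, minus strand): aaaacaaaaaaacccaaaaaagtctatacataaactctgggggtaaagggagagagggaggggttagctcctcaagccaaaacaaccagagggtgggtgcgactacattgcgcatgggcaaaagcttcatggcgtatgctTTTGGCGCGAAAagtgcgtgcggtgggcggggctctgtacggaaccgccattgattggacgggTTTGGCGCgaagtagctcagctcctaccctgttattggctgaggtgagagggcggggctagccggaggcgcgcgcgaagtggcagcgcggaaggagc

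Counted from the annotated start, with the first transcribed base as 1, the Mcm5 matches begin at -153 and -149 and overlap, and its YY1 letters begin at -190. The match begins at 33 in Cdt1, at 40 in E2f2 and at 11 in Pole2, and the YY1 letters of Pole2 begin at 24. The Mcm6 matches begin at -110, -106 and -47, the first pair overlapping. The third gene with YY1 letters was Rrm1, at -89 and at 3.

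**Figure D3:**
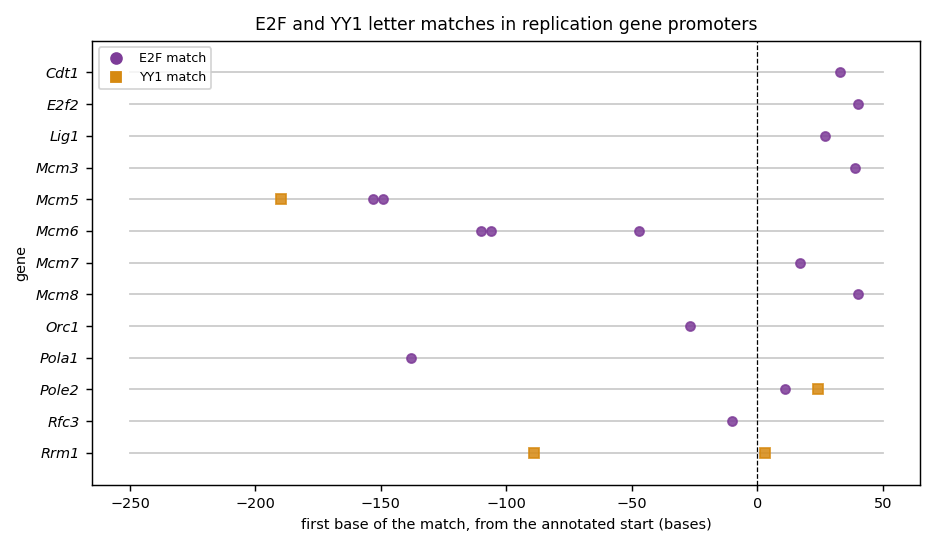
First base of each E2F match (purple circles) and YY1 match (orange squares) relative to the annotated start (horizontal axis, bases) in the 13 replication genes with a match (rows). Matches lie on both sides of the start, and Mcm5 and Pole2 hold both kinds.

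Origin recognition genes showed no called change. These 6 subunits belong to the complex that binds origins, and the level of Orc1 is known to vary with the cell cycle. Their differences lay between -0.14 (Orc1) and 0.14 (Orc4) in Yy1 mutants and between -0.16 (Orc2) and 0.11 (Orc3) in Dicer mutants. Orc2 read 8.01, 7.96, 8.03 and 8.11 in Yy1 mutants and 7.87, 8.0, 8.02 and 7.82 in Dicer mutants, against 7.99, 8.22, 8.09 and 8.05 in controls. Orc6 read 8.72, 8.68, 8.75 and 8.75 in Yy1 mutants and 8.68, 8.71, 8.52 and 8.64 in Dicer mutants, against 8.81, 8.90, 8.74 and 8.70 in controls. Both groups of mutant arrays overlapped the controls in both genes. The adjusted p of Orc2 was 0.719 in Yy1 mutants and 0.198 in Dicer mutants, and that of Orc6 was 0.69 and 0.192. Orc5 was near 0 in both, at -0.01 (95% interval -0.16 to 0.13) in Yy1 mutants and 0.02 (-0.12 to 0.17) in Dicer mutants. Before adjustment, the 95% intervals of Orc2 (-0.32 to -0.01) and Orc6 (-0.29 to -0.01) in Dicer mutants lay below 0. That of Orc4 in Yy1 mutants (0.01 to 0.28) lay above 0.

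Of the licensing factors and their inhibitor, 1 of 3 genes fell in Yy1 mutants and 2 of 3 in Dicer mutants. Cdc6, the ATPase that loads the helicase ring together with the origin complex, read 8.18, 8.28, 8.27 and 8.25 in Yy1 mutants and 8.11, 8.20, 8.27 and 8.07 in Dicer mutants, against 8.76, 8.59, 8.53 and 8.42 in controls. All mutant arrays lay below all controls. Cdc6 fell by 0.33 (SE 0.0766, adjusted p = 0.0188) in Yy1 mutants and by 0.41 (adjusted p = 0.00419) in Dicer mutants. In Yy1 mutants its call was lost without Yy1 mutant 1 or control 1 (adjusted p = 0.0612 and 0.0504), and in Dicer mutants it held in every fit with 1 array left out.

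Cdt1, the partner of Cdc6 in licensing, read 8.11, 8.13, 8.14 and 8.08 in Yy1 mutants and 8.18, 8.11, 8.06 and 8.0 in Dicer mutants, against 8.47, 8.36, 8.31 and 8.22 in controls. The groups did not overlap here either. Cdt1 fell by 0.25 (SE 0.0675, adjusted p = 0.0357) in Dicer mutants, and differed by -0.22 (adjusted p = 0.0694) in Yy1 mutants. The Dicer call held in 4 of 12 fits with 1 array left out, and was lost without Yy1 mutant 1 or 3, Dicer mutant 2, 3 or 4, or control 1, 2 or 3 (adjusted p = 0.0507 to 0.117). Gmnn, the inhibitor of Cdt1, differed by -0.17 (adjusted p = 0.284) in Yy1 mutants and by -0.05 (adjusted p = 0.786) in Dicer mutants.

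Within the helicase ring, 2 of 6 subunits were called lower in each mutant, Mcm2 and Mcm5 in both. Whether the subunits differed from each other was not tested. Mcm5 read 9.87, 9.91, 9.79 and 9.87 in Yy1 mutants and 9.92, 9.96, 9.93 and 9.89 in Dicer mutants, against 10.30, 10.48, 10.14 and 10.12 in controls. Its neighbour in the ring, Mcm2, read 9.37, 9.16, 9.36 and 9.38 in Yy1 mutants and 9.45, 9.42, 9.36 and 9.35 in Dicer mutants, against 9.79, 9.67, 9.60 and 9.63 in controls. In both genes the mutant arrays were all below the controls. Mcm5 fell by 0.40 (SE 0.0775, adjusted p = 0.00625) in Yy1 mutants and by 0.34 (adjusted p = 0.015) in Dicer mutants. Mcm2 fell by 0.36 (SE 0.0692, adjusted p = 0.0064) and by 0.28 (adjusted p = 0.0233). Its Dicer call was lost without Dicer mutant 2, 3 or 4 or control 1 (adjusted p = 0.0512 to 0.0752), while the Mcm5 calls and the Yy1 call of Mcm2 held in every fit with 1 array left out.

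The other ring subunits were not called. Mcm3 differed by -0.24 (adjusted p = 0.101) in Yy1 mutants and by -0.22 (adjusted p = 0.117) in Dicer mutants, and Mcm6 and Mcm7 by -0.14 and -0.19 in Yy1 mutants and by -0.11 and -0.20 in Dicer mutants. Mcm4 read 10.34, 10.33, 10.36 and 10.39 in Yy1 mutants and 10.16, 10.16, 10.14 and 10.12 in Dicer mutants, against 10.41, 10.40, 10.27 and 10.22 in controls. All Dicer mutant arrays were below all controls and all Yy1 mutant arrays were within the range of the controls. The differences from controls were 0.03 (95% interval -0.10 to 0.16) in Yy1 mutants and -0.18 (adjusted p = 0.0927) in Dicer mutants. The Yy1 mutant level lay 0.21 above the Dicer mutant level, which did not pass the test (adjusted p = 0.0714).

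Mcm10, which binds the ring when origins fire and is not part of it, was among the largest changes of the list. It read 7.97, 8.16, 7.99 and 8.13 in Yy1 mutants and 8.07, 8.0, 8.04 and 7.99 in Dicer mutants, against 8.54, 8.60, 8.42 and 8.29 in controls, with no overlap. Mcm10 fell by 0.40 (SE 0.0764, adjusted p = 0.00571) in Yy1 mutants and by 0.44 (adjusted p = 0.00282) in Dicer mutants, and both calls held in every fit with 1 array left out. Mcm8, a relative of the ring subunits known for roles in recombination, differed by -0.07 (adjusted p = 0.743) in Yy1 mutants and by -0.25 (adjusted p = 0.114) in Dicer mutants.

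Of the helicase activators, 2 of 5 fell in each mutant. The GINS subunit Gins3 read 8.04, 8.16, 8.25 and 8.22 in Yy1 mutants and 8.20, 8.27, 8.27 and 8.14 in Dicer mutants, against 8.64, 8.62, 8.40 and 8.45 in controls. Gins2 read 8.06, 8.17, 8.17 and 8.20 in Yy1 mutants and 8.07, 8.19, 8.14 and 8.06 in Dicer mutants, against 8.62, 8.45, 8.41 and 8.25 in controls. Neither gene had a mutant array within the range of the controls. Gins3 fell by 0.36 (SE 0.0751, adjusted p = 0.00977) in Yy1 mutants and by 0.31 (adjusted p = 0.0204) in Dicer mutants. Gins2 fell by 0.28 (SE 0.0777, adjusted p = 0.0443) and by 0.32 (adjusted p = 0.0207). The Yy1 call of Gins2 was lost in 11 of 12 fits with 1 array left out, all but the one without control 4 (adjusted p = 0.0536 to 0.13). The Dicer calls of both were lost without Dicer mutant 4 or control 1 (adjusted p = 0.0542 to 0.071).

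Cdc45, the third component of the active helicase, differed by -0.18 (adjusted p = 0.0987) in Yy1 mutants and by -0.19 (adjusted p = 0.073) in Dicer mutants, and its mutant arrays, at 7.79 to 7.91 and 7.81 to 7.93, lay below the controls at 8.0 to 8.12. Gins1 and Gins4 were not called, at -0.24 and -0.05 in Yy1 mutants and -0.17 and -0.16 in Dicer mutants.

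Of the clamp and its loader, 1 of 5 genes fell in each mutant, Rfc5 in both. This loader subunit read 8.38, 8.44, 8.36 and 8.51 in Yy1 mutants and 8.30, 8.30, 8.37 and 8.36 in Dicer mutants, against 8.87, 8.54, 8.75 and 8.66 in controls. The groups did not overlap, with the closest pair Yy1 mutant 4 and control 2. Rfc5 fell by 0.28 (SE 0.0736, adjusted p = 0.035) in Yy1 mutants and by 0.37 (adjusted p = 0.00615) in Dicer mutants. The Yy1 call was lost without Yy1 mutant 1, 2 or 3, Dicer mutant 4, or control 1, 3 or 4 (adjusted p = 0.0508 to 0.102), and the Dicer call held in all 12 such fits. Pcna, the clamp itself, read 10.63 to 10.80 in Yy1 mutants and 10.71 to 10.81 in Dicer mutants, against 10.85 to 10.88 in controls. All mutant arrays lay below the controls, but the differences of -0.13 (adjusted p = 0.22) and -0.09 (adjusted p = 0.381) were not called. Rfc1, Rfc2 and Rfc3 differed by -0.05, 0.0015 and -0.01 in Yy1 mutants and by -0.09, -0.07 and -0.15 in Dicer mutants.

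Among 8 polymerase and primase genes, 2 fell in each mutant. Pole, the catalytic subunit of the leading-strand polymerase epsilon, read 8.79, 8.68, 8.64 and 8.81 in Yy1 mutants and 8.71, 8.88, 8.70 and 8.87 in Dicer mutants, against 9.06, 9.08, 9.01 and 8.97 in controls. The arrays of both mutants were all lower than the controls. Pole fell by 0.30 (SE 0.0685, adjusted p = 0.0179) in Yy1 mutants and by 0.24 (adjusted p = 0.0466) in Dicer mutants. Without Yy1 mutant 3 the Yy1 call was lost (adjusted p = 0.0643), and the Dicer call was lost in each of the 12 fits with 1 array left out (adjusted p = 0.0502 to 0.134). A dimmer probe set of Pole, with group means of 4.85 in Yy1 mutants, 4.98 in Dicer mutants and 4.96 in controls, differed by -0.11 and 0.02, and with the mean of both probe sets Pole was not called in either mutant (adjusted p = 0.118 and 0.414).

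Pole2, an accessory subunit of the same polymerase, read 8.34, 8.22, 8.27 and 8.43 in Yy1 mutants and 8.64, 8.68, 8.54 and 8.68 in Dicer mutants, against 8.51, 8.83, 8.61 and 8.49 in controls. Yy1 mutant arrays were below every other array, and Dicer mutant arrays lay within the range of the controls. Pole2 fell by 0.29 (SE 0.0814, adjusted p = 0.0483) in Yy1 mutants and differed by 0.03 (95% interval -0.15 to 0.20) in Dicer mutants. The Yy1 call held in 2 of 12 fits with 1 array left out, those without Yy1 mutant 4 or control 4 (adjusted p = 0.0537 to 0.124 in the others).

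Pola2, the second subunit of the polymerase alpha-primase complex, read 9.10, 9.14, 9.12 and 9.16 in Yy1 mutants and 9.0, 9.10, 9.07 and 9.0 in Dicer mutants, against 9.45, 9.48, 9.24 and 9.27 in controls. No array of either mutant reached the controls. Pola2 fell by 0.32 (SE 0.0679, adjusted p = 0.0097) in Dicer mutants, a call kept in all 12 fits with 1 array left out, and differed by -0.24 (adjusted p = 0.0571) in Yy1 mutants. The remaining genes, Pola1, Prim1, Prim2, Pold1 and Pold2, lay between -0.21 (Pold1) and -0.06 (Prim2) in Yy1 mutants and between -0.21 (Prim1) and -0.04 (Pola1) in Dicer mutants without a call.

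Both genes of Okazaki fragment joining were lower, each with a call in 1 mutant. Fen1, the flap nuclease, read 6.79, 6.74, 6.78 and 6.94 in Yy1 mutants and 6.99, 6.88, 6.62 and 6.88 in Dicer mutants, against 7.32, 6.99, 7.24 and 7.06 in controls. The highest Dicer mutant array and the lowest control nearly met. Fen1 fell by 0.34 (SE 0.0941, adjusted p = 0.0463) in Yy1 mutants and differed by -0.31 (adjusted p = 0.057) in Dicer mutants. The Yy1 call was lost without Yy1 mutant 1, 2 or 3, Dicer mutant 2 or 4, or control 1, 3 or 4 (adjusted p = 0.0539 to 0.134), and a second probe set of Fen1 differed by -0.13 (adjusted p = 0.585 over all probe sets). Lig1, the ligase that seals the fragments, read 8.66, 8.66, 8.57 and 8.70 in Yy1 mutants and 8.48, 8.65, 8.52 and 8.48 in Dicer mutants, against 8.91, 8.85, 8.86 and 8.66 in controls. Lig1 fell by 0.29 (SE 0.0705, adjusted p = 0.0216) in Dicer mutants and differed by -0.17 (adjusted p = 0.188) in Yy1 mutants, whose arrays overlapped control 4. Its Dicer call was lost without Dicer mutant 1, 3 or 4, or control 1 or 3 (adjusted p = 0.0521 to 0.0727).

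The single-strand binding subunits were not called. Rpa2 read 7.99, 8.03, 7.98 and 8.15 in Yy1 mutants and 8.17, 8.10, 8.17 and 7.97 in Dicer mutants, against 8.48, 8.22, 8.19 and 8.23 in controls. Its mutant arrays were all below the controls, with differences of -0.24 (adjusted p = 0.0935) in Yy1 mutants and -0.18 (adjusted p = 0.203) in Dicer mutants. Rpa1 read 9.32, 9.4, 9.34 and 9.35 in Yy1 mutants and 9.16, 9.17, 9.28 and 9.30 in Dicer mutants, against 9.37, 9.56, 9.30 and 9.32 in controls. It differed by -0.03 (adjusted p = 0.872) and -0.16 (adjusted p = 0.196), and both mutants overlapped the controls.

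In nucleotide supply, Rrm2 alone was called, and in Yy1 mutants. This small subunit of ribonucleotide reductase, which is made in S phase, read 8.42, 8.23, 8.34 and 8.42 in Yy1 mutants and 8.61, 8.57, 8.42 and 8.48 in Dicer mutants, against 8.73, 8.87, 8.68 and 8.60 in controls. Yy1 mutants were below all controls, while Dicer mutant 1 reached control 4. Rrm2 fell by 0.37 (SE 0.0752, adjusted p = 0.00919) in Yy1 mutants and differed by -0.20 (adjusted p = 0.129) in Dicer mutants. The Yy1 call held in all 12 fits with 1 array left out but not with the mean of its probe sets (adjusted p = 0.155), of which the other was dim, with group means of 3.38 in Yy1 mutants, 3.35 in Dicer mutants and 3.42 in controls. Rrm1, the large subunit, differed by -0.04 (95% interval -0.18 to 0.11) in Yy1 mutants and by -0.13 (adjusted p = 0.303) in Dicer mutants. Tyms, thymidylate synthase, differed by -0.08 (adjusted p = 0.623) and by -0.21 (adjusted p = 0.0907).

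Of the chromatin assembly factor subunits, which place histones on new DNA, Chaf1b was called in Yy1 mutants and Chaf1a in Dicer mutants. Chaf1b read 9.15, 9.12, 9.15 and 9.13 in Yy1 mutants and 9.26, 9.18, 9.24 and 9.24 in Dicer mutants, against 9.49, 9.41, 9.31 and 9.27 in controls. Chaf1a read 8.11, 7.86, 8.07 and 8.10 in Yy1 mutants and 7.90, 7.86, 7.93 and 7.83 in Dicer mutants, against 8.27, 8.17, 8.20 and 8.02 in controls. All Dicer mutant arrays were below all controls in both genes, and Yy1 mutant arrays were so in Chaf1b. Chaf1b fell by 0.23 (SE 0.0619, adjusted p = 0.0378) in Yy1 mutants and differed by -0.14 (adjusted p = 0.194) in Dicer mutants. Chaf1a fell by 0.29 (SE 0.0745, adjusted p = 0.0276) in Dicer mutants and differed by -0.13 (adjusted p = 0.372) in Yy1 mutants. The Chaf1b call held in 3 of 12 fits with 1 array left out, those without Dicer mutant 1 or 2 or control 4 (adjusted p = 0.0543 to 0.103 in the others), and the Chaf1a call was lost without Dicer mutant 2 or 4 or control 1 or 3 (adjusted p = 0.072 to 0.0839).

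E2f2, a transcriptional activator of S-phase genes, was the largest change of the list in Yy1 mutants and differed between the mutants. It read 7.16, 6.90, 6.99 and 6.92 in Yy1 mutants and 7.54, 7.45, 7.63 and 7.38 in Dicer mutants, against 7.66, 7.79, 7.43 and 7.39 in controls. The Yy1 mutants were below every other array, while the Dicer mutants overlapped the controls. E2f2 fell 1.49-fold in Yy1 mutants, by 0.57 (SE 0.098, adjusted p = 0.00277), and differed by -0.07 (95% interval -0.28 to 0.14) in Dicer mutants. E2f1, the related activator, read 7.42, 7.52, 7.62 and 7.40 in Yy1 mutants and 7.67, 7.69, 7.64 and 7.67 in Dicer mutants, against 7.83, 7.67, 7.72 and 7.63 in controls. The Yy1 mutant arrays were below all controls. Its difference of -0.22 in Yy1 mutants did not pass the test (adjusted p = 0.0724), nor did that of -0.05 in Dicer mutants (adjusted p = 0.746).

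**Figure D4:**
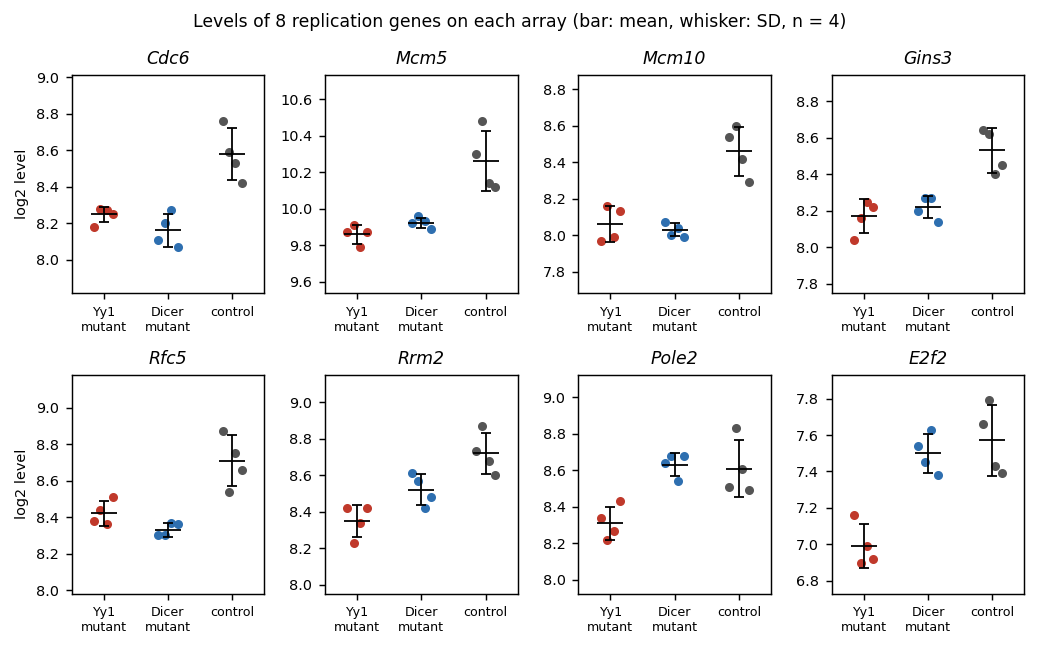
Log2 level of 8 replication genes on each array (points) with the mean and SD of 4 arrays, for Yy1 mutants (red), Dicer mutants (blue) and controls (grey), each panel spanning the same range on the log2 scale. Cdc6, Mcm5, Mcm10, Gins3 and Rfc5 are below the controls in both mutants, and Pole2 and E2f2 are below them in Yy1 mutants.

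Set directly against each other, the mutants differed in 2 of the 46 members (4.35%), both lower in Yy1 mutants. Among all genes 3.39% were called lower and 1.57% higher (4.96% in either direction), so the share of members was near that of all genes. E2f2 was 1.42-fold lower in Yy1 than in Dicer mutants, a difference of -0.51 (SE 0.098, adjusted p = 0.00759), and this call held in all 12 fits with 1 array left out. Pole2 was lower by 0.32 (SE 0.0814, adjusted p = 0.0386), a call lost without Yy1 mutant 1, 2 or 3, any of the 4 Dicer mutants, or control 3 (adjusted p = 0.0547 to 0.107). With those 3 Y-raised arrays left out neither passed the test, with E2f2 at -0.50 (adjusted p = 0.117) and Pole2 at -0.23 (adjusted p = 0.436). The median difference between the mutants was 0.02 over the members and 0.03 over all genes, and 21 members were lower and 25 higher in Yy1 mutants by the fitted value. Mcm4 was called higher in Yy1 than in Dicer mutants under 3 alternatives, with the dimmest 30% of genes left out, with an intensity trend and robust prior, and with array weights (adjusted p = 0.0368, 0.015 and 0.0219). Orc4 was called higher with array weights (adjusted p = 0.0484). In 5 members all Yy1 mutant arrays lay below all Dicer mutant arrays, where 7.19% of all genes did so, and in 3 members all lay above, where 6.6% of all genes did so.

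For the genes lower in both mutants the data bound how far the mutants could differ. The Yy1 minus Dicer difference was -0.06 (95% interval -0.23 to 0.10) for Mcm5, 0.04 (-0.13 to 0.20) for Mcm10, 0.08 (-0.08 to 0.25) for Cdc6 and -0.08 (-0.23 to 0.07) for Mcm2. Each interval includes 0, so the order of the mutants was not resolved for these genes.

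Related genes were counted in 5 further lists, to be read against the 3.84% of all genes called lower in Yy1 mutants and 3.97% in Dicer mutants. The shares of all genes called higher were 2.77% and 4.78%. Of 26 initiation kinases and fork factors, 1 fell in Yy1 mutants (3.85%) and 4 in Dicer mutants (15.4%), with medians of -0.11 and -0.13. The share in Yy1 mutants was that of all genes. Ticrr, which helps Cdc45 onto the ring, fell by 0.31 in Yy1 mutants and by 0.38 in Dicer mutants. In Dicer mutants the kinase gene Cdc7 fell by 0.31, the checkpoint scaffold gene Topbp1 by 0.28 and the polymerase epsilon subunit gene Pole3 by 0.24. In Yy1 mutants, without a call, Cdc7 read 8.11 to 8.19, Topbp1 9.93 to 10.09 and Pole3 8.7 to 8.91. The controls read 8.27 to 8.52, 10.06 to 10.13 and 8.89 to 8.97 in the same order. Of 12 other nucleotide supply enzymes, 4 fell in Yy1 mutants and 2 in Dicer mutants, with medians of -0.24 and -0.21. Shmt1 and Mthfd1, enzymes of folate-bound carbon transfer, fell by 0.31 and 0.27 in Yy1 mutants and by 0.41 and 0.25 in Dicer mutants. Samhd1, which degrades the building blocks, and Umps, of pyrimidine synthesis, fell by 0.34 and 0.25 in Yy1 mutants. Neither was called in Dicer mutants, at 9.17 to 9.27 and 9.0 to 9.08, against 9.22 to 9.36 and 9.11 to 9.38 in controls.

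Of 10 genes of histone supply and maintenance methylation, 2 fell in Yy1 mutants and 3 in Dicer mutants. The histone chaperone Asf1b fell by 0.38 and 0.42, and Uhrf1, which brings the maintenance methyltransferase to new DNA, by 0.40 and 0.41 in Yy1 and Dicer mutants. Hells, a chromatin remodeller, fell by 0.34 in Dicer mutants. It was not called in Yy1 mutants, at 8.77 to 9.08 against 9.05 to 9.21 in controls. Of 11 other E2F and Rb family genes, 4 fell and 0 rose in Yy1 mutants, and 4 fell and 2 rose in Dicer mutants. The repressors E2f7 and E2f8 fell by 0.39 and 0.43 in Yy1 mutants and by 0.37 and 0.32 in Dicer mutants, and E2f4 by 0.39 and 0.34. Rbl1, a relative of Rb, fell by 0.23 in Yy1 mutants, and Tfdp2, an E2F partner, rose by 0.35 in Dicer mutants. Rbl1 read 9.03 to 9.09 in Dicer mutants, against 9.16 to 9.25 in controls. Tfdp2 was not called in Yy1 mutants, at 8.37 to 8.61 against 8.25 to 8.47 in controls. E2f5 was lower in Yy1 than in Dicer mutants by 0.45 (adjusted p = 0.00866). It read 7.82 to 8.2 in Yy1 mutants, overlapping the controls at 8.03 to 8.33, and 8.41 to 8.44 in Dicer mutants, above all controls. Of 23 mitosis genes, 4 fell in Yy1 mutants and 2 in Dicer mutants, with medians of -0.15 and -0.12, and the kinase gene Aurkb fell by 0.32 in both. The spindle checkpoint genes Mad2l1 and Bub1b and the kinase gene Aurka fell by 0.34, 0.30 and 0.27 in Yy1 mutants and were not called in Dicer mutants, at -0.21, -0.15 and -0.15. Tpx2, a spindle assembly factor, fell by 0.25 in Dicer mutants and was not called in Yy1 mutants, at -0.22. Nusap1, a spindle protein gene, was lower in Yy1 than in Dicer mutants by 0.34 (adjusted p = 0.0214). It read 8.94 to 9.11 in Yy1 mutants and 9.22 to 9.52 in Dicer mutants, against 9.21 to 9.36 in controls. Whether these lists differ from the replication genes was not tested.

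Cell type markers moved in the same arrays. Of all genes, 3.84% were called lower and 2.77% higher in Yy1 mutants, and 3.97% lower and 4.78% higher in Dicer mutants. In whole-lung RNA, fewer cells of a type and less RNA per cell cannot be told apart. Of 14 lung epithelium markers 12 were lower in Yy1 mutants and 11 in Dicer mutants, with a mean level of 7.81 to 8.15 in Yy1 mutants and 8.16 to 8.36 in Dicer mutants, against 8.63 to 8.88 in controls. Of 7 smooth muscle markers 6 were lower in each mutant, at 7.84 to 8.38 in Yy1 mutants and 7.86 to 8.52 in Dicer mutants, against 9.36 to 9.56 in controls. Of 10 lung mesenchyme markers 5 were higher in Yy1 mutants and 6 in Dicer mutants, at 10.46 to 10.59 and 10.34 to 10.56, against 10.00 to 10.12 in controls. Of 10 macrophage and leukocyte markers 7 were higher in Yy1 mutants and 8 in Dicer mutants, at 7.31 to 7.52 and 7.5 to 7.66, against 6.90 to 7.01 in controls. Of 8 endothelium markers 1 was higher in Yy1 mutants and 7 in Dicer mutants. Of 7 erythroid markers 0 were called in Yy1 mutants and 1 was higher in Dicer mutants, at 7.02 to 7.37 and 7.23 to 7.55, against 7.13 to 7.26 in controls. Of 5 mesothelium markers 1 was lower in each mutant and 1 higher in Dicer mutants. The lower one was Krt19, which is also counted among the lung epithelium markers. Of 5 heart muscle markers and 5 of oesophagus, stomach and thymus 0 were called. Heart muscle markers varied most between arrays, at 6.55 to 8.01 in Yy1 mutants and 6.47 to 8.72 in Dicer mutants, against 7.04 to 7.34 in controls. The part of these shifts in the levels of the replication genes was not tested.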

How the data were processed

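Total RNA of E14.5 lungs was hybridised to Affymetrix arrays, per the labels' protocols. The authors deposited log2 values, the base being judged from their range. The authors' normalisation and summary method is not given in the sources used here. Of 41345 probe sets, 23521 had 1 gene symbol, 1814 had several and 16010 had no listed gene, which gave 22180 genes by the brightest probe set. Differences came from limma 3.58.1 under R 4.3.3 (lmFit and eBayes, Benjamini-Hochberg adjustment) over all 12 arrays without covariates. In simulated data, shifts were given to genes drawn at random from the 22180, and most genes were left without a difference. A shift of 0.5 was recovered in 53.7% of 67 genes for Yy1 mutants and 70.1% for Dicer mutants. One of 0.25 was recovered in 4.48% and 7.46%. More genes were called in the real fit, so these shares do not give the recovery for the replication genes. The number of arrays limits the precision. Values on every array are given for members called in any comparison, and in roles with no call for the 1 or 2 with the largest change. Mcm4 and E2f1, given array by array outside this rule, were chosen after their values were seen. Up to 4 called genes with the smallest p were named per related list and comparison. Members, lists and tests were chosen with earlier results of these data known. Alternatives covered normalisation, dim probe sets, the probe set rule, variance moderation, array weights, the samples fitted, a replicate block, raised Y-linked genes and each array left out.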

Additional observations from a re-analysis of the deposited data

Results flagged for a closer look

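In 8 of 138 groups of 4 arrays, a member had 1 array far from the other 3 by Dixon's criterion, where chance gives about 1 in 20 groups, or 6.9. Among Yy1 mutants, Mcm2 read 9.16 on array 2 against 9.36 to 9.38 on the others, Chaf1a read 7.86 on array 2 against 8.07 to 8.11, Mcm6 read 9.91 on array 4 against 9.83 to 9.84, and Rrm1 read 10.5 on array 4 against 10.47 on the others. Among Dicer mutants, Cdc45 read 7.93 on array 3 against 7.81 to 7.83. Among controls, Cdc45 read 8.12 on array 3 against 8.0 to 8.01, Orc4 read 8.63 on array 1 against 8.76 to 8.78, and Rpa2 read 8.48 on array 1 against 8.19 to 8.23.

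The mutants differed from each other in E2f2, by -0.507, and in Pole2, by -0.32, both lower in Yy1 than in Dicer mutants in the limma fit.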

How the results depend on the processing

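No called gene changed sign in any alternative run, but the median difference between the mutants, 0.017, was -0.001 without Dicer mutant 4. Member counts here are of genes called lower. Between the mutants, 1 member was also called higher without the dimmest genes, 1 with an intensity trend and robust prior, and 2 with array weights. In the alternatives run for single genes, 615 values stayed on the same side of the threshold and 155 lost the call. The 615 include Orc2, Orc6, Rpa1 and Rpa2 in both mutants, which were not called in the main fit and had no call to lose. For Yy1 mutants against controls, 13 members were called, 8 when only the compared groups were fitted, 5 with a covariate for raised Y-linked genes and 0 without those arrays, where all-gene calls were 919 and 606 in the last pair of fits. With only the compared groups fitted, 1112 genes were called in Yy1 mutants. For Dicer mutants, 12 members were called, 8 when only the compared groups were fitted and 8 with the covariate, where all-gene calls were 1514 and 1537. Without those arrays 3 members and 976 genes were called in Dicer mutants. Between the mutants, 1 member was called with the covariate, and 0 members and 435 genes without the arrays, while array weights gave 1806 genes. Fewer arrays enter the fits without the Y-raised arrays, while the covariate fits keep all 12. Raised Y-linked genes were seen on mutant arrays only, so they cannot be fully told apart from genotype. The cause of these shifts was not tested. With 1 array left out, members called ranged from 7 to 13 in Yy1 mutants, 5 to 13 in Dicer mutants and 1 to 2 between the mutants, and all genes called from 1020 to 1455, 1275 to 1991 and 726 to 1180. The medians ranged from -0.221 to -0.141, -0.2 to -0.156 and -0.001 to 0.03.

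With the replicate number as a block, 8 members were called in Yy1 mutants and 1 between the mutants, where 1301 and 997 of all genes were called. Same-numbered arrays correlated at -0.161 to 0.19 in their deviations from the group means, and 5 of 12 arrays correlated best with their own number, so the numbers were not taken to pair the arrays.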
